A study of Mus musculus with 9 samples.

Results

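The interferon-inducible GTPases described here were 10 genes of the guanylate-binding protein (GBP) and immunity-related GTPase (IRG) families, taken by their symbols from the 24411 genes of the deposited expression table. They were Gbp2, Gbp3, Gbp5, Gbp6, Gbp7, Gbp9, Igtp, Irgm1, Irgm2 and Iigp1. All 10 were in the table and all passed the filter on low values, so none was left out. In the macrophage lines compared here, all 10 had their highest mean in the lines from yolk sac, an intermediate mean in those from fetal liver and their lowest mean in those from adult bone marrow. For most of them, though, lines of the same origin also differed several-fold among themselves. Iigp1 stood apart in size: it was abundant in every yolk sac and fetal liver line and close to 0 in bone marrow lines 1 and 3.

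GBPs and IRG proteins are GTPases of the cell's own defense against microbes that live inside it. Interferons raise their transcription in macrophages, through gamma-activated sites and interferon-stimulated response elements in their promoters. The GTPases then gather on the membranes of parasite vacuoles and bacteria, disrupt them, and promote autophagy and inflammasome activation. Irgm1, Irgm2 and Igtp (also called Irgm3) are regulatory IRG proteins that sit on the cell's own membranes and keep effector IRG proteins such as Iigp1 (also called Irga6) inactive there.

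Bulk RNA-seq was done on macrophage lines of C57BL/6 mice, 3 each of YS, FL and BM origin, with 1 library per line. Cells had been taken from yolk sac at E9.5 (YS), fetal liver at E14.5 (FL) or bone marrow of adult mice (BM), pooled from 2 or more mice, and grown with recombinant human M-CSF, the growth factor on which macrophages depend (100 ng/mL, in medium holding 10% FCS), until colonies of proliferating macrophage-like cells could be collected. Each dish or well gave 1 line, kept as a bulk culture. By the methods, seeding density and time to stable growth differed among the origins, and YS cells were started in wells rather than dishes. Origin and culture history therefore cannot be told apart here. Neither the labels nor the methods name an interferon treatment for the sequenced cultures, and nothing says that lines of a group came from separate animals, so p-values measure the spread between lines, which may be technical. Expression is given in TPM, a measure of transcript abundance scaled by transcript length to the same total in every library, so that levels of different genes can be compared. Read numbers cannot be recovered from it, which leaves depth unknown and the spread among lines as the measure of precision. The libraries listed 13345 to 14322 genes above 0. Between lines of a group, Pearson's r over the 11753 tested genes (log2 scale) was 0.912 to 0.960 within YS lines, 0.947 to 0.963 within FL lines and 0.975 to 0.985 within BM lines. All 9 macrophage markers examined, among them Csf1r, Adgre1 (F4/80) and Spi1, reached 1 TPM, but their levels were not equal. Their summed level was 5310.78 to 11910.2 TPM in YS lines, 16573.7 to 30602.3 TPM in FL lines and 12180.1 to 14097.5 TPM in BM lines. The part of these marker differences in the results below was not tested.

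RefSeq (GRCm38.p6) gave promoter sequences for 7 of the 10 genes, which show the elements that interferon signaling reads. Promoters of Gbp6, Gbp9 and Iigp1 were not used here. Windows from 250 bases before to 50 bases after the annotated start were searched on both strands. The search used a response element core of 2 GAAA copies with 2 bases between them, and a gamma-activated site of TTC and GAA with 3 bases between them, which reads the same on both strands. The 7 genes had 8 promoter entries, since Gbp3 has an additional annotated start. The response element core was found in 7 of 8 promoters, all but that at the additional start of Gbp3, against 3.44% of all 32851 promoters of that length. The gamma-activated site was found in 4 of 8 (Gbp5, Gbp7, Igtp and Irgm2), against 8.30% of all promoters. Both were found in these 4 promoters, against 0.454% of all promoters. These are matches of letters, not measured binding. In the stretches below, which end at the base before the start and read 5′ to 3′ on the strand of the gene, capitals mark the matches.
Gbp2, chr3:142620553-142620662, plus strand: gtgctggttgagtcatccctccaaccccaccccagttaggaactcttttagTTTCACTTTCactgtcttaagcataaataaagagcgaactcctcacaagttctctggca
Gbp3, chr3:142559934-142560043, plus strand: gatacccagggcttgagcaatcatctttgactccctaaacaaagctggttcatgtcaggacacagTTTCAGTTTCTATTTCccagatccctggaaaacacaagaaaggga
Gbp5, chr3:142496754-142496933, plus strand: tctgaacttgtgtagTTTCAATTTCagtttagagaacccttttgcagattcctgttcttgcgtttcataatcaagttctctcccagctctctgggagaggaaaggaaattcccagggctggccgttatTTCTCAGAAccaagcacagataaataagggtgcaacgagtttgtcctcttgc
Gbp7, chr3:142530226-142530335, plus strand: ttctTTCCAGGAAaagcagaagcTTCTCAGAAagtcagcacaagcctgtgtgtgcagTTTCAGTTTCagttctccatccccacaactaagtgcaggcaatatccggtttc
Igtp, chr11:58199446-58199555, plus strand: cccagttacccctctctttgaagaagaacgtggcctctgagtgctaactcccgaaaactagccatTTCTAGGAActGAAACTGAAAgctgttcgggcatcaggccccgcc
Irgm2, chr11:58214867-58214976, plus strand: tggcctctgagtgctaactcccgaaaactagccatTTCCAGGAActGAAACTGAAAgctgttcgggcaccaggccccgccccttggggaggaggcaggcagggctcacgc
Irgm1, chr11:48871421-48871530, minus strand: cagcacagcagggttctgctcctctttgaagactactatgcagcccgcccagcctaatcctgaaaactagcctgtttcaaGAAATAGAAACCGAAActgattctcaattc
In Igtp the gamma-activated site spanned positions -45 to -37 and the core -34 to -25, and in Irgm2 the same pair lay at -75 to -67 and -64 to -55. These stretches of Igtp and Irgm2 were equal at 78 of 80 bases (97.5%) when shifted by 30 bases. The capitals of Gbp3 and Irgm1 hold 2 cores that overlap each other. A further gamma-activated site of Gbp5, at -245 to -237, lies outside the stretch shown.

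**Figure D1:**
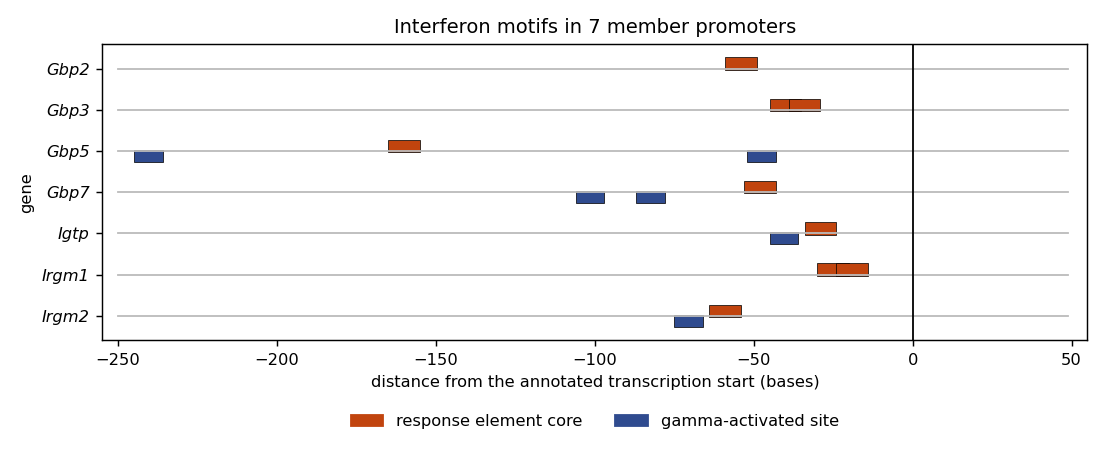
Positions of response element cores (red, above the line) and gamma-activated sites (blue, below the line) in 7 promoters, in bases from the annotated transcription start. The cores of 6 genes lay within 64 bases of the start, and that of Gbp5 lay at -165 to -156.

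Of the GBP genes on chromosome 3, Gbp2, which takes part in the control of Toxoplasma, was at 12.58, 65.06 and 80.01 TPM (YS, in the order of lines 1 to 3, as in all such values), at 43.70, 14.07 and 35.94 TPM (FL) and at 13.13, 24.09 and 7.39 TPM (BM). Gbp3 was at 12.13, 71.31 and 85.91 TPM (YS), at 64.41, 7.45 and 44.42 TPM (FL) and at 10.79, 20.78 and 5.22 TPM (BM). For both genes YS lines 2 and 3 and FL lines 1 and 3 were above all BM lines, while YS line 1 and FL line 2 lay among them. Gbp7 was at 11.03, 44.75 and 46.24 TPM (YS), at 28.93, 9.27 and 16.72 TPM (FL) and at 6.01, 13.02 and 2.57 TPM (BM). Gbp5, which has been linked to the NLRP3 inflammasome, had the lowest mean of the 10 in each group, at 4.49, 9.54 and 11.33 TPM (YS), 8.79, 1.62 and 3.32 TPM (FL) and 0.79, 2.27 and 0.49 TPM (BM). For Gbp5, unlike the other 3 genes, every YS line was above every BM line.

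The members on chromosome 5 behaved unequally. Gbp6 was at 11.77, 42.87 and 94.19 TPM (YS), at 42.89, 4.29 and 29.37 TPM (FL) and at 6.39, 12.25 and 1.93 TPM (BM), with an 8.00-fold range among YS lines and one of about 10-fold among FL lines. Gbp9 was at 17.95, 48.02 and 81.16 TPM (YS), at 47.86, 18.50 and 31.09 TPM (FL) and at 26.23, 31.76 and 13.73 TPM (BM). Gbp9 had the smallest difference between groups of the 10, and YS line 1 was below BM lines 1 and 2.

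The regulatory IRG genes lie on chromosome 11. Irgm1, whose loss makes mice unable to control mycobacteria, was the most abundant of the 10 in each line, at 118.11, 199.37 and 325.81 TPM (YS), 157.97, 75.09 and 137.45 TPM (FL) and 84.47, 134.99 and 51.93 TPM (BM). Irgm2 was at 36.95, 74.52 and 112.59 TPM (YS), 61.77, 29.72 and 44.25 TPM (FL) and 23.96, 36.12 and 13.18 TPM (BM). Igtp was at 35.37, 66.50 and 129.05 TPM (YS), 57.65, 26.13 and 41.46 TPM (FL) and 23.79, 40.48 and 13.74 TPM (BM). The groups overlapped for Irgm1 and Igtp, in which BM line 2 exceeded YS line 1, and for Irgm2 the lowest YS line was just above the highest BM line.

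Iigp1, on chromosome 18, encodes an effector IRG protein that coats the vacuole of Toxoplasma. It was at 39.47, 128.82 and 244.67 TPM (YS), at 101.78, 34.37 and 48.87 TPM (FL) and at 0.61, 8.65 and 0.10 TPM (BM). Means were 138 ± 103, 61.7 ± 35.5 and 3.12 ± 4.80 TPM (SD, n = 3 each). Every YS and FL line was above every BM line, and BM line 2 was far above the other BM lines. Other transcripts nearly absent from BM lines 1 and 3 were therefore looked up in BM line 2. The 45 genes taken lay under 0.5 TPM in both and reached at least 20 TPM in YS line 2, with no condition on BM line 2. For these the level in BM line 2 was 14.1% (median) of that in YS line 2. Taking genes low in BM lines 1 and 3 itself favors a higher level in BM line 2. For Iigp1, which at 0.61 TPM in BM line 1 was not among the 45, it was 6.71%. The same count was not made for BM line 1 or BM line 3, nor against another line than YS line 2. The part of such transcripts of BM line 2 in the result was not tested, and without BM line 2 the differences of Iigp1 were larger.

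**Figure D2:**
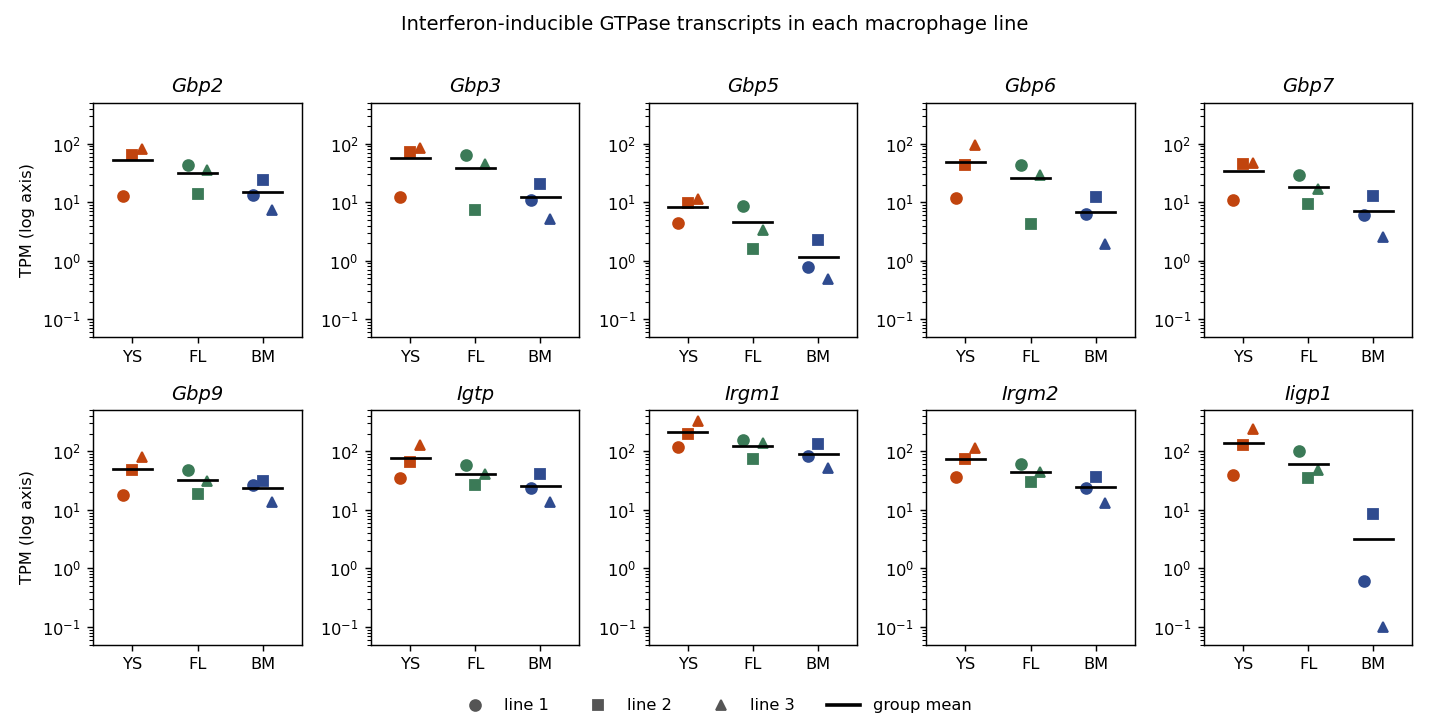
TPM of the 10 members in each line on a log axis, with a panel for each gene, a symbol for each line number and a bar for the group mean. YS line 3 is highest and BM line 3 lowest in all 10 panels, and only in that of Iigp1 do YS and FL lines both stand clear of all BM lines.

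The order of the lines was nearly the same for every member. YS line 3 was the highest and BM line 3 the lowest of the 9 lines in 10 of 10 members. Within groups, YS line 1 was the lowest YS line, FL line 1 the highest and FL line 2 the lowest FL line, and BM line 2 the highest BM line, each in 10 of 10 members. Summed over the 10 members, TPM was 299.85, 750.76 and 1210.96 in YS lines, 615.75, 220.51 and 432.89 in FL lines and 196.17, 324.41 and 110.28 in BM lines. YS line 1 and FL line 2 thus had less than BM line 2. YS line 1 was below BM line 2 in 7 members and below FL line 1 in 10, and FL line 2 was below BM line 2 in 9. As a description over 9 lines that share groups and libraries, Pearson's r of log2(TPM + 1) between members was 0.706 to 0.991 over 45 pairs (median 0.934), closest between Igtp and Irgm1 and loosest between Gbp9 and Iigp1. After the group means were subtracted it was 0.817 to 0.991 (median 0.935), so members also rose and fell together among lines of the same origin. The closest pair was then Igtp and Irgm2 and the loosest Gbp3 and Iigp1.

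YS and FL lines were both compared with the same BM lines, so those comparisons are not independent. The comparison of YS with BM lines sets macrophages of the earliest embryonic origin against those of adult marrow, each with its own culture history. Of the 10 members, 7 were higher in YS lines (Gbp5, Gbp6, Gbp7, Igtp, Irgm1, Irgm2 and Iigp1) and none was lower. Iigp1 rose the most, and Gbp5 had the next lowest adjusted p. The test was limma on log2(TPM + 1), a scale that understates changes of low genes, and a call needed an adjusted p under 0.1 together with more than 2-fold. As background, 7.57% of all 11753 genes tested were called higher in YS lines and 5.22% were called lower. The log2 fold change of Iigp1 was 5.40 (standard error 0.90, limma adjusted p = 0.0048). That of Gbp5 was 2.12 (standard error 0.53, adjusted p = 0.0201) and that of Irgm2 was 1.54 (standard error 0.47, adjusted p = 0.041). Gbp7 rose by 2.07 (log2) at an adjusted p of 0.0495, Igtp by 1.47 at 0.0668, Irgm1 by 1.22 at 0.0776 and Gbp6 by 2.51 at 0.0846. Gbp2, Gbp3 and Gbp9 did not pass, with 1.54, 1.90 and 0.85 (log2) and limma adjusted p of 0.143, 0.158 and 0.281. Every YS line was above every BM line in 3 members (Gbp5, Irgm2 and Iigp1), as in 30.3% of all genes tested. For such a gene the exact two-sided permutation test of 3 lines against 3 gives its smallest p, 0.1. The median log2 difference was 1.72 over the 10 members and 0.11 over all genes tested. In bulk RNA, fewer cells that express a gene and less RNA per cell cannot be told apart.

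These calls depended on single lines. Without YS line 1, which was low in every member, limma called 10 of 10 members. Without YS line 2 or without YS line 3 it called 3, and without BM line 1 or without BM line 3 it called 2, Gbp5 and Iigp1. Without BM line 2 it called 7. The share of all genes called in each fit without a line is not given here. These changes in calls therefore cannot be said to be particular to the members. Iigp1 was called in each of these fits, with a log2 fold change of 4.79 to 6.35, the highest without BM line 2. Gbp5 was called in each of them too, at adjusted p of at most 0.0809.

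Between FL and BM lines, Iigp1 was the member that was called. It was higher in FL lines by 4.46 on the log2 scale (standard error 0.90, limma adjusted p = 0.0104), where 6.01% of all genes tested were called higher and 4.3% lower. The other 9 members had higher means in FL lines too, with log2 differences from 0.41 for Gbp9 to 1.54 for Gbp6, but none passed (limma adjusted p of 0.142 to 0.656). Every FL line was above every BM line in 1 member, Iigp1, as in 31% of all genes tested. The median log2 difference was 1.12 over the members and 0.09 over all genes. Without FL line 2, the lowest FL line, 2 members were called, Gbp5 being added, and without any other single line of either group Iigp1 alone was. Its log2 fold change without a line was 3.84 to 5.41, again highest without BM line 2.

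Between YS and FL lines, no member was called by limma, none reached an unadjusted p under 0.05 (0 of 10), and in none were all YS lines above all FL lines. Among all genes tested, 1.95% were called higher in YS lines and 1.85% were called lower, and in 12.6% every YS line was above every FL line. The log2 differences were all above 0, from 0.44 for Gbp9 to 0.97 for Gbp6, with a median of 0.74 against 0.02 over all genes. Their intervals were wide: for Iigp1 the 95% confidence interval was -1.10 to 2.99 and for Irgm1 it was -0.30 to 1.78. Without FL line 2 the difference of Gbp3 turned to -0.32, and without YS line 3 that of Gbp9 turned to -0.04. These data therefore do not show that YS and FL lines had equal levels.

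**Figure D3:**
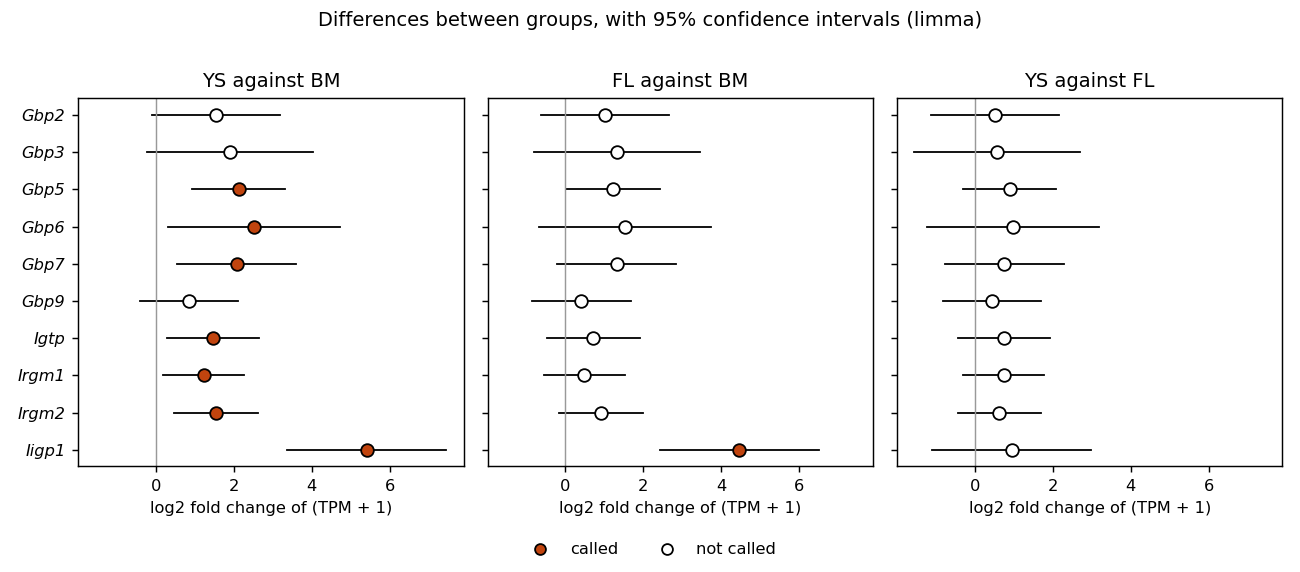
Log2 fold change of TPM + 1 for each member in the 3 comparisons, with 95% confidence intervals from limma, where filled points were called (adjusted p under 0.1 and more than 2-fold). The interval of Iigp1 lies above 2 in both comparisons with BM lines, and in the comparison of YS with FL lines all intervals include 0.

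Family members of near-identical sequence can share reads, and the way such reads were divided bears on these values. Of the distinct stretches of 75 nt (the read length) in the GENCODE M21 transcripts of each gene, none of Irgm1 or Iigp1 occurred in another gene. For Gbp2, Gbp3, Gbp5 and Gbp9 it was 0.955%, 2.06%, 0.578% and 3.61%. Igtp shared 7.80% with Irgm2, and Gbp7 shared 11.3% with other genes. Gbp6 shared 67.3%, mostly with the transcript model Gm43302, so the level of Gbp6 is uncertain.

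Other interferon-inducible GTPases of these families showed similar or larger differences. Of a list of 20 related genes, 19 were in the table and 16 were tested. Between YS and BM lines, 15 were called higher and 0 lower, between FL and BM lines 8 and 0, and between YS and FL lines 3 and 0. Of all genes tested, 7.57%, 6.01% and 1.95% were called higher in these comparisons and 5.22%, 4.3% and 1.85% lower. The median log2 difference was 2.24 between YS and BM lines over the 16 genes tested. On chromosome 18, where Iigp1 lies, the IRG genes Gm4951 and F830016B08Rik had the same pattern as Iigp1. Gm4951 was at 27.45, 59.10 and 63.32 TPM (YS), 52.40, 20.39 and 33.42 TPM (FL) and 0.11, 5.24 and 0.06 TPM (BM). F830016B08Rik was at 12.49, 44.68 and 45.97 TPM (YS), 32.58, 20.31 and 18.14 TPM (FL) and 0.04, 3.09 and 0.05 TPM (BM). In all 3 genes of this chromosome, YS and FL lines stood above all BM lines, and BM line 2 above the other BM lines. This order was not particular to chromosome 18, since Gm5431 on chromosome 11 and Mx1 on chromosome 16, among others, had it too. Their log2 fold changes between YS and BM lines were 4.62 (standard error 0.69, limma adjusted p = 0.00333) for Gm4951 and 4.22 (standard error 0.64, adjusted p = 0.00346) for F830016B08Rik. Of the 75-nt stretches, Gm4951 shared 0 and F830016B08Rik 0.900% with other genes, and Iigp1 shared 0, so shared sequence among them was small.

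On chromosome 11, Gm12250, whose protein (Irgb10) helps to open bacterial membranes, was at 24.18, 54.47 and 98.82 TPM (YS), 33.37, 1.13 and 14.76 TPM (FL) and 0.22, 2.39 and 0.17 TPM (BM). Tgtp2, an effector IRG gene, was at 29.76, 32.66 and 135.43 TPM (YS), 17.72, 0.19 and 1.51 TPM (FL) and 2.37, 1.29 and 0.48 TPM (BM), but 81.4% of its 75-nt stretches were shared, all with Tgtp1. Both genes were high in every YS line and varied widely among FL lines. Tgtp2 was called higher in YS than in FL lines (log2 fold change 3.77, limma adjusted p = 0.0626), as were Tgtp1 (1.41, adjusted p = 0.0383) and Gm12185 (1.00, adjusted p = 0.0515). Tgtp1 was at 0.19 to 4.35 TPM in YS and FL lines, and 77.2% of its stretches were shared, mostly with Tgtp2. The calls of Tgtp1 and Tgtp2 may therefore rest partly on the same reads. Ifi47 was at 34.47, 60.57 and 103.26 TPM (YS), 56.13, 34.69 and 33.74 TPM (FL) and 12.89, 18.53 and 14.33 TPM (BM). It was called in both comparisons with BM lines (1.92, adjusted p = 0.0081, and 1.36, adjusted p = 0.0332). Gm5431 reached 31.94 to 93.85 TPM in YS and FL lines and 0.53 to 11.29 TPM in BM lines. 9930111J21Rik1 and 9930111J21Rik2, which share most of their sequence, were called between YS and BM lines by little more than 2-fold (1.10 and 1.05 on the log2 scale).

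Among GBP genes outside the 10, Gbp8 was at 9.78, 39.99 and 46.97 TPM (YS), 30.13, 20.35 and 34.23 TPM (FL) and 3.73, 13.33 and 4.67 TPM (BM). It was called in both comparisons with BM lines. Gbp4 was at 2.29, 24.69 and 51.21 TPM (YS), 14.58, 2.06 and 7.90 TPM (FL) and 3.12, 5.41 and 0.60 TPM (BM), a wide spread that left it the only tested gene of the list not called between YS and BM lines. Gbp10 stayed at or under 1.48 TPM and was not tested, and Gbp2b and Gbp11 never reached 1 TPM. The giant GTPase genes Gvin1 and Gm4070, 98.3% and 96.7% of whose 75-nt stretches were shared, were called between YS and BM lines (1.86 and 2.24). Mx1 and Mx2, dynamin-like antiviral GTPases that RefSeq lists as pseudogenes in this genome, were also called there. Mx1 was at 39.20, 68.37 and 104.71 TPM (YS), 44.27, 6.55 and 23.30 TPM (FL) and 0.22 and 3.22 TPM in BM lines 1 and 2, and was listed at 0 in BM line 3. Without FL line 1, BM line 1 or BM line 3, the 8 related genes called between FL and BM lines became 4, and without FL line 3 they became 5. The 3 called between YS and FL lines became 1 without YS line 2 or YS line 3 and 0 without FL line 2 or FL line 3.

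**Figure D4:**
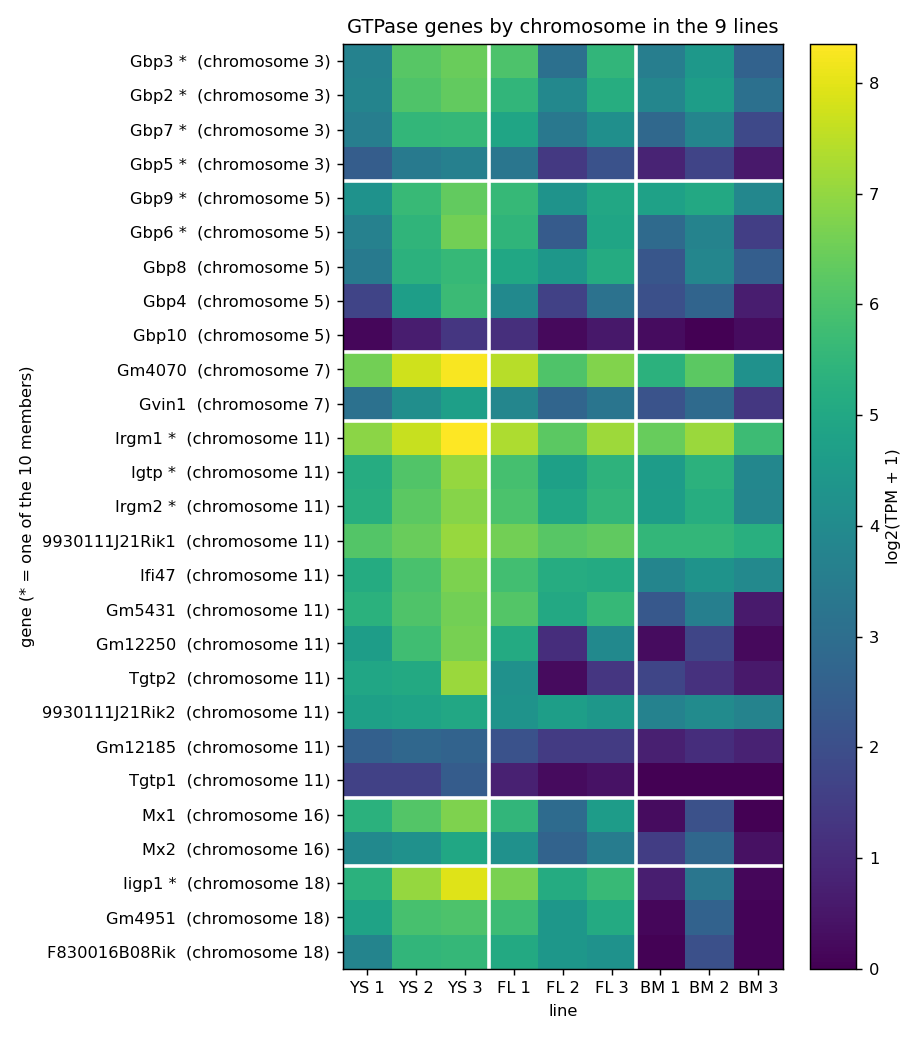
Log2(TPM + 1) of the 10 members (marked with *) and of the related GTPase genes that reached 1 TPM, in rows by chromosome and in columns by line. The 3 genes on chromosome 18 are bright in all YS and FL columns and dark in BM lines 1 and 3, with intermediate color in BM line 2.

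The balance of IRG genes was read within each line as a percentage of Irgm1, which cancels differences that all share. Iigp1 was at 33.4%, 64.6% and 75.1% of Irgm1 in YS lines, 64.4%, 45.8% and 35.6% in FL lines and 0.722%, 6.41% and 0.193% in BM lines. Gm4951 was at 19.4% to 33.2% of Irgm1 in YS and FL lines and at 0.116% to 3.88% in BM lines. Irgm2 was at 31.3% to 39.6% of Irgm1 in YS and FL lines and at 28.4%, 26.8% and 25.4% in BM lines, so its BM lines were also the lowest, by a much smaller margin. Igtp was at 29.9% to 39.6% of Irgm1 in YS and FL lines and at 28.2%, 30.0% and 26.5% in BM lines, which overlapped. These percentages were compared after the levels had been seen, and no test is given.

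**Figure D5:**
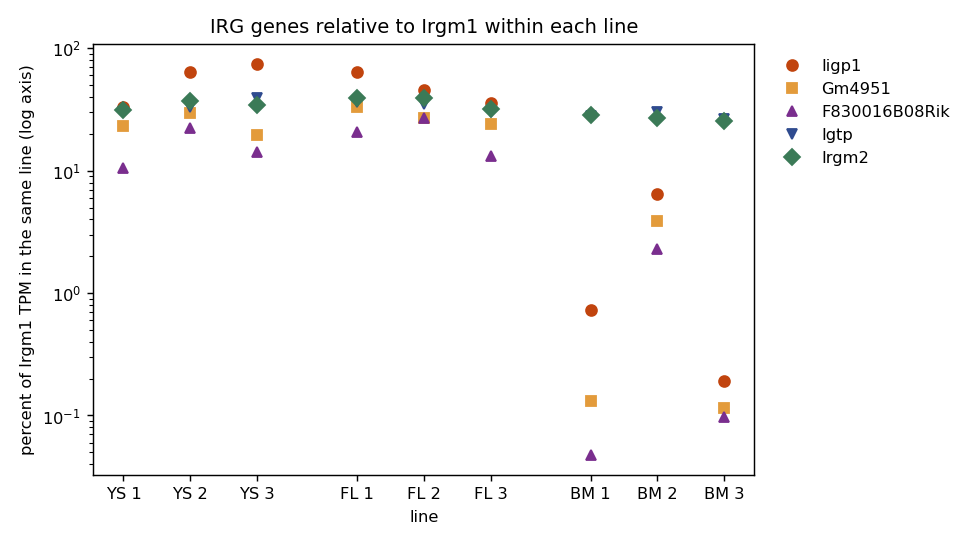
TPM of 5 IRG genes as a percentage of Irgm1 in the same line, on a log axis, for the 9 lines in their groups. Igtp and Irgm2 stay between 25.4% and 39.6% in all lines, while Iigp1, Gm4951 and F830016B08Rik fall to 6.41% or less in BM lines.

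The receptors and relay between interferons and these genes did not differ alike. Of all genes tested, 7.57% were called higher in YS than in BM lines and 5.22% lower. These shares were 6.01% and 4.3% in FL against BM lines, and 1.95% and 1.85% in YS against FL lines. Of 20 relay genes tested, 7 were called higher and 0 lower in YS than in BM lines, 2 and 0 in FL than in BM lines and 0 and 0 in YS than in FL lines, where 4 of 20 had an unadjusted p under 0.05. Those called between YS and BM lines included Stat2 (1.63, limma adjusted p = 0.0237), Irf8 (1.54, adjusted p = 0.00482), Irf7 (2.12, adjusted p = 0.0424), Tyk2 (1.12, adjusted p = 0.024), Socs1 (1.40, adjusted p = 0.0805) and Usp18 (2.64, adjusted p = 0.041). Socs1 and Usp18 encode inhibitors of the pathway, and Irf7 and Irf8 encode transcription factors. Irf9 was higher by 0.96 (log2) at a limma adjusted p of 0.031 and so missed the 2-fold threshold. Irf1 was not called (0.65, adjusted p = 0.144).

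The interferon-gamma receptor genes were present in all lines. Ifngr1 was at 96.47 to 113.08 TPM in YS lines, 108.20 to 162.48 TPM in FL lines and 122.46 to 139.11 TPM in BM lines. Ifngr2 was at 116.37 to 160.24, 146.56 to 157.35 and 97.64 to 103.28 TPM in the same order. For Ifngr2 every YS line and every FL line was above every BM line. Neither gene differed by 2-fold, with log2 differences between YS and BM lines of -0.30 for Ifngr1 (limma adjusted p = 0.158) and 0.37 for Ifngr2 (adjusted p = 0.0611). Between FL and BM lines they were 0.02 (adjusted p = 0.952) and 0.58 (adjusted p = 0.0157). The kinase gene Jak1 was higher in YS than in BM lines by 0.44 (adjusted p = 0.0657). Jak2 had the opposite direction, at 11.41 to 16.45 TPM in YS lines, 9.43 to 12.49 TPM in FL lines and 20.93 to 23.04 TPM in BM lines (log2 difference -0.62 between YS and BM lines, adjusted p = 0.0254). Between FL and BM lines, Irf8 (1.11, adjusted p = 0.0177) and Stat2 (1.16, adjusted p = 0.0929) were called. The 7 relay genes called between YS and BM lines became 4 without BM line 3. The 2 called between FL and BM lines became 1 without FL line 3, BM line 1 or BM line 3, 4 without BM line 2 and 5 without FL line 2.

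Interferon transcripts themselves were scarce. Of 20 ligand genes in the table, Ifnb1 alone passed the filter. It was at 0.60, 1.90 and 4.95 TPM (YS), at 3.20 TPM in FL line 1 and 1.91 TPM in FL line 3, at 0.21 TPM in BM line 1 and 0.20 TPM in BM line 2, and was listed at 0 in FL line 2 and BM line 3. Its highest YS line (line 3) and its highest FL line (line 1) were also the highest for the members. In BM lines it was too low to rank them. Ifnb1 was called in no comparison (log2 difference between YS and BM lines 1.42). Every YS line was above every BM line, though, as in 30.3% of all genes tested, and the unadjusted limma p there was under 0.05. Its profile over the 9 lines had an r of 0.921 with that of the members. Ifng was listed at 0 in all 9 lines, and no other ligand gene reached 1 TPM.

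Other genes of the interferon response were counted in a pair of lists. Beside them, the shares of all genes called higher were 7.57% (YS against BM lines), 6.01% (FL against BM lines) and 1.95% (YS against FL lines). The shares called lower were 5.22%, 4.3% and 1.85%. Of 30 genes of the type I interferon response, 20 rose and 1 fell in YS against BM lines, 9 and 0 in FL than in BM lines, and 0 and 1 in YS than in FL lines. The largest rises in YS over BM lines were those of Ifi44 (4.89, limma adjusted p = 0.0233), Zbp1 (4.54, adjusted p = 0.0155), which encodes a nucleic acid sensor, Cmpk2 (3.42, adjusted p = 0.0251) and the antiviral gene Rsad2 (3.12, adjusted p = 0.0294). Slfn5 was the gene called lower (-3.02, adjusted p = 0.0767), and also the one called lower in YS than in FL lines (-4.12, adjusted p = 0.0699), a call lost without YS line 1, YS line 2 or FL line 2. Of 22 tested genes of the interferon-gamma response, 12 were called higher and 1 lower in YS than in BM lines, 3 and 1 in FL than in BM lines and 1 and 0 in YS than in FL lines. The largest were Fcgr1 (4.65, adjusted p = 0.00761), the chemokine gene Cxcl10 (3.37, adjusted p = 0.04), the costimulatory gene Cd40 (3.05, adjusted p = 0.00668) and Cd74 (2.74, adjusted p = 0.0434). Cd74 was also called between YS and FL lines (2.75, adjusted p = 0.093), a call lost without FL line 2 or FL line 3. Without BM line 3 the calls between YS and BM lines became 12 for the type I list and 4 for the interferon-gamma list, and without YS line 3 they became 13 and 7. Between FL and BM lines the type I calls became 2 without FL line 1 or BM line 1, 4 without FL line 3 and 0 without BM line 3. Other alternatives raised these counts. Over all of them the calls between YS and BM lines were 12 to 27 for the type I list and 4 to 16 for the interferon-gamma list. Between FL and BM lines the type I calls were 0 to 13. The share of all genes called in these fits is not given here. Many of these genes answer to both interferon types, so the lists do not separate them.

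The genes whose profile over the 9 lines was most like the mean profile of the members were sought among the other 11743 tested genes. They were Epsti1 (Pearson's r 0.987), Gvin1 (0.986), Ly6e (0.986), Cxcl10 (0.985), Lgals3bp (0.982), Nmi (0.982), Uba7 (0.981) and Gm4070 (0.981). Over all these genes the median r was 0.0996. Epsti1, the nearest, was at 95.16, 217.18 and 236.20 TPM (YS), 164.06, 89.57 and 127.70 TPM (FL) and 81.82, 100.79 and 58.96 TPM (BM), with the same lowest line in each group as the members. The median r was 0.948 for the 30 type I response genes, 0.883 for the 16 related GTPases, 0.816 for the 22 interferon-gamma response genes and 0.627 for the 20 relay genes. These are descriptions over 9 lines that share groups.

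Markers of other cell types were examined beside these results. No T cell, B cell, NK cell or fibroblast marker on the lists reached 1 TPM in any line, and 4 of the 5 T cell markers were listed at 0 throughout. Of 4 endothelial markers, 2 reached 1 TPM, and their summed level was 0.46 to 55.75 TPM in YS lines, 18.63 to 51.68 TPM in FL lines and 0.06 to 1.14 TPM in BM lines. In all FL lines and in YS lines 2 and 3, nearly all of this was Kdr. Cdh5 was at 0.14 to 1.36 TPM in YS lines, 1.26 to 1.38 TPM in FL lines and at most 0.28 TPM in BM lines. Cldn5 was listed at 0 throughout. Of 5 erythroid markers, 2 reached 1 TPM, and the summed level was 0.30 to 9.10 TPM in YS lines, 0.20 to 1.31 TPM in FL lines and 0.50 to 227.9 TPM in BM lines, the highest in BM line 2, with Hbb-bs listed at 0 throughout. Of 6 neutrophil markers, 5 were in the table and S100a8 alone reached 1 TPM, with sums of 0.06 to 2.46, 10.49 to 25.6 and 3.66 to 5.00 TPM in the same order, and S100a9 and Elane were listed at 0 throughout. Of 4 dendritic cell markers, 1 reached 1 TPM, with sums of 6.82 to 7.86, 2.57 to 6.59 and 2.82 to 3.24 TPM, and of 4 hepatocyte markers Afp alone did, with sums of 1.03 to 6.75, 9.00 to 20.6 and 3.10 to 12.49 TPM. The part of these in the differences between groups was not tested.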

How the data were processed

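RNA-seq of 9 macrophage lines was analysed. The authors prepared poly(A)-selected, strand-specific libraries, sequenced single reads (75 nt), and deposited TPM values to 2 decimals for 24411 gene symbols. The submitters' processing notes name Trim Galore 0.6.6, STAR 2.7.9a and RSEM 1.3.3. The genome build and annotation behind the values are not given in the sources used here. RSEM divides reads that fit several genes by estimate, which bears on near-identical family members. TPM keeps no depth, so no counting interval is given.

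The deposited TPM were transformed to log2(TPM + 1), genes reaching 1 TPM in 3 or more libraries were kept, and all 9 libraries entered a linear model in limma 3.58.1 (R 4.3.3) with an intensity trend and Benjamini-Hochberg adjustment within each comparison. Calls required an adjusted p under 0.1 and more than 2-fold, the thresholds of the study. The model was tested on simulated data. Groups came from the sample labels, with 1 library per line. Labels give the lines numbers 1 to 3 in each group without calling them pairs, so the replicate number was a block only as an alternative. Further alternatives used a pseudocount of 0.1 or 4, no filter or one at 5 TPM, another scaling, no variance trend, the 6 libraries compared, other thresholds, and each line omitted once.

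The members and the gene lists were chosen with earlier results of these data known. Genes named are all 10 members, related GTPases that reached 1 TPM in a line, fixed relay genes with others where called (1 of these is not reported here), up to 4 called genes per other list with the largest changes, and the 8 genes nearest in profile. Gbp2b, Gbp11, Atg5, ligand genes and single markers were named outside this rule. Promoters came from RefSeq (GRCm38.p6) and shared 75-nt stretches from GENCODE M21 transcripts, neither of which is known to be the annotation the authors used. Python 3.11.15 was used for these steps.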

Additional observations from a re-analysis of the deposited data

How the results depend on the processing

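Over the 17 alternatives of each comparison, the number of members called between YS and FL lines was 0 in all, and that between FL and BM lines was 1 in all but the fit without FL line 2. Between YS and BM lines it was within 1.5 times the reported 7 in 10 alternatives. It was 4 with no filter on low values and 4 with an adjusted p under 0.05, and quantile normalization and median-of-ratios scaling gave 5 each, losing Gbp6 and Irgm1. With the replicate block it was 4, while same-numbered lines did not deviate together (r of -0.118 to 0.0878 between their deviations from group means). These r values showed no sign of pairing but, with 3 lines per group, cannot exclude it. Leaving out each line in turn gave 2 to 10 members between YS and BM lines and 1 to 2 between FL and BM lines. The share of all genes called in each alternative is not given here. None of these changes in counts can therefore be said to be particular to the members. For the other gene lists, fits without a line were named only where the count moved by more than 1.5 times. No called member changed direction in any alternative. Iigp1 was called in both comparisons with BM lines under all of them (limma adjusted p of 0.00262 to 0.0276 and 0.00447 to 0.0487), and so was Gbp5 between YS and BM lines (0.0173 to 0.0809). With 3 lines per group and wide differences among lines of a group, the differences of Gbp2, Gbp3 and Gbp9 between YS and BM lines did not pass, and read depth is unknown.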

Other observations

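Genes that act with the GTPases were counted beside the share of all genes called between YS and BM lines, which was 7.57% higher and 5.22% lower. Between FL and BM lines the share was 6.01% higher and 4.3% lower, and between YS and FL lines 1.95% and 1.85%. Of 21 tested genes of autophagy conjugation and its adaptors, which GBPs and IRG proteins use to reach vacuoles, 1 was called higher and 1 lower in YS than in BM lines, 0 between FL and BM lines (4 at an unadjusted p under 0.05) and 1, lower, between YS and FL lines. The gene called higher was Trim21, a ubiquitin ligase gene (log2 fold change 1.03, limma adjusted p = 0.0547), at 31.16, 51.29 and 77.69 TPM (YS), 46.33, 31.78 and 38.14 TPM (FL) and 25.20, 32.84 and 16.64 TPM (BM). Its profile had an r of 0.979 with that of the members over the 9 lines, whereas the median of the list was -0.18. The gene called lower was Map1lc3a, which encodes a form of LC3 (-1.63, adjusted p = 0.00518), and it was lower in YS than in FL lines too (-1.19, adjusted p = 0.0511). Atg5, which is needed for IRG proteins to be placed correctly, was at 30.03 to 35.13 TPM in YS lines, 52.02 to 55.48 TPM in FL lines and 38.70 to 45.63 TPM in BM lines, differences under 2-fold that were not called (log2 difference between YS and FL lines -0.74, adjusted p = 0.0157). The calls between YS and BM lines became 1 without YS line 2, YS line 3, BM line 1 or BM line 3, and that between YS and FL lines became 0 without FL line 2 or FL line 3.

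Of 11 tested caspase and inflammasome genes, 3 were called higher in YS than in BM lines: Nlrc4 (1.79, limma adjusted p = 0.0228), Il18 (1.42, adjusted p = 0.0328) and Casp4 (1.09, adjusted p = 0.049), which encodes caspase-11. Casp4 was at 72.06, 66.58 and 137.52 TPM (YS), 79.60, 34.35 and 66.94 TPM (FL) and 41.96, 45.58 and 34.51 TPM (BM). Between FL and BM lines, Il1b (1.66, adjusted p = 0.0119) and Nlrc4 (1.43, adjusted p = 0.0617) were called higher and Gsdmd, the gene of the pore protein gasdermin D, lower (-1.08, adjusted p = 0.0483). Il1b did not pass 3.42 TPM in any line. Those 3 calls became 1 without FL line 1, FL line 2, BM line 1 or BM line 3. Gsdmd was called higher in YS than in FL lines (1.09, adjusted p = 0.0857), a call lost without YS line 1 or YS line 3. Of 11 genes of prenylation, which anchors some GBPs to membranes, 0 were called between YS and BM lines (3 at an unadjusted p under 0.05), Zmpste24 was called higher in FL than in BM lines (1.06, adjusted p = 0.00164) and not without BM line 1, and 0 were called between YS and FL lines (2 at an unadjusted p under 0.05). Of 9 tested atlastin, dynamin and mitofusin genes, which belong to the dynamin superfamily as GBPs do, Atl3 was lower in YS and in FL than in BM lines (-1.16 in both, adjusted p = 0.00102 and 0.000755), and Dnm1 was lower in YS than in BM lines (-1.68, adjusted p = 0.011) and than in FL lines (-1.18, adjusted p = 0.0856). Dnm1 was no longer called between YS and FL lines without YS line 3 or any single FL line.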
